A study of Mus musculus with 4 samples.

Results

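The collagen genes of the mouse were taken as all RefSeq protein-coding genes whose symbol reads Col, a number, a and a number, which gave 44 of 21887 genes. Peaks of accessible chromatin were recorded at both annotated ends of each gene, within 1 kb on either side, and in the rest of the gene. The cells were female germ cells of C57BL/6 embryos at embryonic day 15.5, and accessibility had been measured by ATAC-seq, an assay in which a transposase cuts and tags exposed DNA. They had been isolated by sorting for Oct4-EGFP, a germ cell reporter that both groups carried. The genotype was Control in 2 libraries, Control 1 and Control 2, and Snf5 CKO in 2 others, Snf5 CKO 1 and Snf5 CKO 2, where CKO stands for conditional knockout. Snf5 is encoded by Smarcb1 and belongs to the core of SWI/SNF, a complex that moves nucleosomes. The sources used here name neither the Cre driver, the Snf5 alleles nor what the controls carried. They also do not say how many embryos went into a library, so the spread between the libraries of a group may be technical. Where 4 values follow each other below, they stand in the order Control 1, Control 2, Snf5 CKO 1, Snf5 CKO 2.

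Collagens are secreted or membrane-bound proteins of the extracellular matrix, in which chains wind around each other as a triple helix. Fibrillar collagens form the fibres of bone, skin, tendon and cartilage, and type IV collagens form the network of basement membranes. FACIT collagens sit on the surface of fibrils, and other classes make beaded filaments, anchoring fibrils or transmembrane proteins. In a gonad the bulk of collagen is made by stromal, endothelial and supporting cells and not by germ cells. The 6 type IV genes lie in the genome as pairs that point away from each other from a common region, an arrangement known as head to head.

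The 4 lists held 39465, 36730, 45422 and 28625 peaks, and their read depth is unknown. Smarcb1 itself had peaks of 929 and 1139 bp at its gene ends in the controls and no peak there in the knockout lists. All 6 germ cell markers on a marker list (Ddx4, Dazl, Dppa3, Pou5f1, Sycp3 and Mael) had a gene-end peak in all 4 libraries. Of 6 stroma markers 3, 3, 3 and 1 had one, while Pdgfra, Dcn and Lum had none in any library. Of 5 endothelium markers 2, 2, 1 and 1 had one, with none anywhere for Cdh5 and Tie1. Of 6 ovarian supporting cell markers 5, 4, 4 and 4 had one, with none for Amhr2.

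The sequences before the starts of 8 collagen genes are shown because the results turn on them. They are the promoters of the X-linked type IV pair, of which Col4a5 alone had a peak, the 4 promoters that lost their peak and have a sequence in the RefSeq promoter table (GRCm38.p6), and a fibrillar promoter that kept its peak beside a fibrillar one that had none. Each runs 5′ to 3′ along the gene's own strand and stops before the first annotated base of a protein-coding gene. Capitals mark the GC box (GGGCGG), the CCAAT box, the TATA box (TATAAA) and the AP-1 site (TGANTCA) on either strand.
Col4a5 (chrX:141475169-141475369, plus strand, peak in all 4 libraries): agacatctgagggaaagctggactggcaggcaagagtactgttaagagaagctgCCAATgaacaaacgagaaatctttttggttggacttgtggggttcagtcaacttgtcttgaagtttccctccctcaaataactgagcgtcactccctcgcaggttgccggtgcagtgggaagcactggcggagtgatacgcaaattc
Col4a6 (chrX:141474096-141474326, minus strand, no peak): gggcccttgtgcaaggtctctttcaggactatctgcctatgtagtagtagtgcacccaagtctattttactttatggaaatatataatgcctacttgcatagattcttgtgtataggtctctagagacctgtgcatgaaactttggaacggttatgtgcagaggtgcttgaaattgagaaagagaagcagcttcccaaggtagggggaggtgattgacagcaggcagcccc
Col9a2 (chr4:121039316-121039565, plus strand, peak in the controls alone): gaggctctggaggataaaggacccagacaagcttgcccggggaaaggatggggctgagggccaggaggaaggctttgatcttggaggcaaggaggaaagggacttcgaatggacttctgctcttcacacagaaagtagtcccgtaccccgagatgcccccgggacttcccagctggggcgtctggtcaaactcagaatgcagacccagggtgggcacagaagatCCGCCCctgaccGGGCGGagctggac
Col16a1 (chr4:130047590-130047816, plus strand, peak in the controls alone): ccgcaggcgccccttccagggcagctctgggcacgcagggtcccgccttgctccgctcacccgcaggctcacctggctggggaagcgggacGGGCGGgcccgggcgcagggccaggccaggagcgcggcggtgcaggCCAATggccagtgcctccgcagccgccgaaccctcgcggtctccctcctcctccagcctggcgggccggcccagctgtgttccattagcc
Col24a1 (chr3:145292222-145292471, plus strand, peak in the controls alone): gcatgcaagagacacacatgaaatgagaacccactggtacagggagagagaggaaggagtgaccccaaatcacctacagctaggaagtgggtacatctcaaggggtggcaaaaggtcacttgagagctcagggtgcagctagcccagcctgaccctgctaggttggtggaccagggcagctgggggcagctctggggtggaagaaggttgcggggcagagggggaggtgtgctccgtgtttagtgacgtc
Col8a1 (chr16:57754738-57754987, minus strand, peak in the controls alone): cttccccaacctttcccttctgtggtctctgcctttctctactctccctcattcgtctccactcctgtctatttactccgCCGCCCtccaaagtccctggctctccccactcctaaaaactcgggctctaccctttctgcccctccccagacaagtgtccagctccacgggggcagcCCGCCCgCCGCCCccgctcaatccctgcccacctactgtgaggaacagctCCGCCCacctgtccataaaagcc
Col1a2 (chr6:4505368-4505617, plus strand, peak in all 4 libraries): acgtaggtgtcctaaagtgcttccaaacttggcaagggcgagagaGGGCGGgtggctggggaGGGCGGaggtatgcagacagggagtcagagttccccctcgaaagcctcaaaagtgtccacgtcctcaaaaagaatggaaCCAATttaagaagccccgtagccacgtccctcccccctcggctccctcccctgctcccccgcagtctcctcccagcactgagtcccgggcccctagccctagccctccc
Col3a1 (chr1:45311288-45311537, plus strand, no peak): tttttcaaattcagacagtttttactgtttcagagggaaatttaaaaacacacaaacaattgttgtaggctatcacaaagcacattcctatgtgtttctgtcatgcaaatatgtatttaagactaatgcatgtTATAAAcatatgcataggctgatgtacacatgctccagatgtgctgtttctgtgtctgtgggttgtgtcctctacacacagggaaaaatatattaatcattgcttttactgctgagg

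A gene was counted as open where a peak overlapped either of its gene-end windows by 1 bp or more. Of the 44 collagen genes 28 and 29 were open in the controls, and 21 and 16 in the knockout libraries. That was 63.6% and 65.9% in the controls and 47.7% and 36.4% in Snf5 CKO, against 63.3%, 63.0%, 60.4% and 56.4% of all protein-coding genes. Both Snf5 CKO counts lay below both control counts for the collagens and for all genes, but with 2 libraries against 2 an exact two-sided permutation test over the samples cannot go below 0.333. In a sorted population, a peak that is missing because fewer cells were open and one missing because each cell was less open cannot be told apart.

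Of the 27 collagen genes open in both controls, 14 (51.9%) had a peak in all 4 libraries and are called kept, a word used below in that sense. Among all genes open in both controls the kept share was 89.6%. A further 5 collagen genes (18.5%) were lost, meaning open in both controls and in neither Snf5 CKO library, against a background of 4.84% of such genes. They were Col9a2, Col16a1, Col24a1, Col8a1 and Col26a1. Another 6 lacked a peak in Snf5 CKO 2 alone (Col2a1, Col4a3, Col4a4, Col5a3, Col6a2 and Col14a1) and 2 in Snf5 CKO 1 alone (Col8a2 and Col9a3). Among all 13421 genes open in both controls, 650 were lost, 624 lacked a peak in Snf5 CKO 2 alone and 117 in Snf5 CKO 1 alone. Of the 14 collagen genes closed in both controls none was gained, the reverse of lost, beside 0.534% of all such genes. Without Snf5 CKO 1 the number lost was 11, since the 6 genes without a peak in Snf5 CKO 2 then counted as lost. Over all genes, the 624 without a peak in Snf5 CKO 2 would likewise join the 650 lost. With peaks limited to those with a −log10 q of 3 or more the number of collagen genes lost was 10, and Col8a1 and Col26a1 were then not among them. The share of all genes lost at that limit is not given here. Of the 32 gene-end windows with a peak in some library, 23 lay at the start of the annotated gene, 2 at its far end and 7 at an end of a gene whose strand is not listed. Counting listed starts alone, 21 of 35 genes were open in both controls, of which 61.9% were kept and 19.0% lost, against 91.2% and 3.86% of all genes with a listed start.

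**Figure D1:**
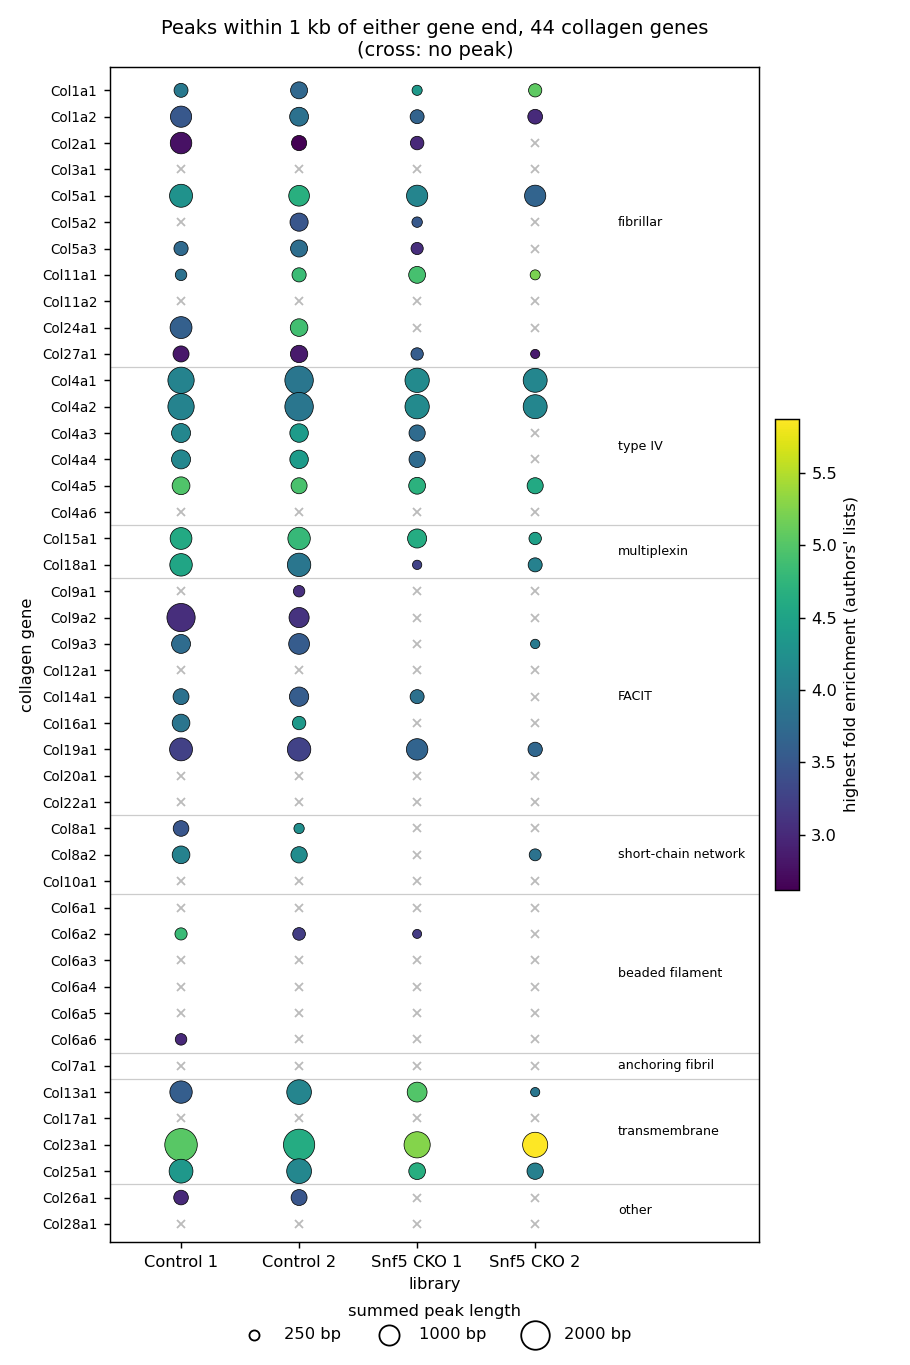
Peaks within 1 kb of either end of the 44 collagen genes (rows, grouped by class) in the 4 libraries (columns); dot area gives the summed peak length in bp, colour the highest fold enrichment in the authors' list, and a cross marks no peak. The number of genes with a dot was 28 and 29 in the controls and 21 and 16 in Snf5 CKO, and in Snf5 CKO 2 the beaded filament genes had no dot.

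The collagen genes started from weak control peaks. As a measure of strength, the highest −log10 q of the peaks at a gene's ends was taken in each control, and the lower of these values was kept. Its median was 3.88 over the 27 collagen genes open in both controls and 9.43 over all 13421 such genes, and no collagen gene exceeded 9.18, the value of the peak at the far end of Col23a1. Among all genes the kept share was higher at each step of this value, from 36.1% under 3 and 69.2% from 3 to 5 to 96.0% from 5 to 10 and 99.5% above. The collagen genes had 2 of 6 kept under 3, 5 of 13 from 3 to 5 and 7 of 8 from 5 to 10. In those same bins 35.5%, 12.7% and 1.18% of all genes were lost, beside 2 of 6, 3 of 13 and 0 of 8 collagen genes. The strength of the control peak therefore moved with the loss, in the collagens and in all genes, and its part in the result was not tested.

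**Figure D2:**
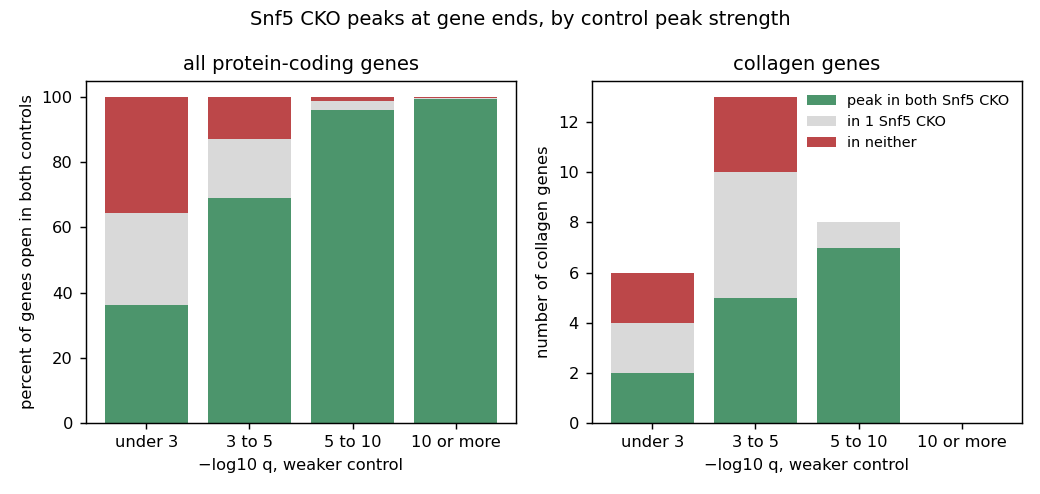
Genes with a gene-end peak in both controls, split by the −log10 q of the weaker control (x axis); the left panel gives the percent of all protein-coding genes and the right panel the number of collagen genes with a Snf5 CKO peak in both libraries, in 1 or in neither. No collagen gene reached 10, the bin in which 99.5% of all genes were kept.

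The lost genes came from several structural classes. Col9a2, a chain of the type IX FACIT collagen of cartilage fibrils (chromosome 4, 121039566 to 121055325), had start peaks of 1954 and 994 bp in the controls, with fold enrichments of 3.04 and 3.10 in the authors' lists. It also had a peak inside the gene in both controls, at 121052371 to 121053136 when merged, and no peak anywhere in the knockout libraries. The locus was thus empty in the knockout lists from end to end.

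Col16a1, a FACIT collagen gene at chromosome 4, 130047817 to 130099277, had start peaks of 769 and 444 bp in Control 1 and Control 2, with fold enrichments of 3.88 and 4.37. The lncRNA gene Gm12963 overlaps that start in the annotation, so a peak there can belong to either gene. Col24a1, a fibrillar collagen gene at chromosome 3, 145292472 to 145552013, had start peaks of 1177 and 759 bp with fold enrichments of 3.60 and 4.88. Neither start had a Snf5 CKO peak. Both genes and Col9a2 were lost under all 11 alternatives that gave such a call, including a stricter q, lists of the same length and each library left out.

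Col8a1, a short-chain network collagen gene at chromosome 16, 57624256 to 57754737, had weaker control peaks. Control 1 showed a peak of 282 bp over the start and a second of 319 bp before it, and Control 2 a peak of 262 bp over the start. Col26a1, at chromosome 5, 136741759 to 136883376, had peaks at its higher-coordinate end that added up to 526 bp in Control 1 and 624 bp in Control 2. The call for both did not hold when the −log10 q had to reach 3, nor with lists of the same length. That for Col26a1, whose start is not listed, also ended with windows of 2 kb and with peaks counted in the whole merged region.

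The type IV genes were followed as pairs, and 3 of the 6 were kept, 2 lacked a peak in Snf5 CKO 2 alone and 1 was closed. Col4a1 and Col4a2 encode the chains found in nearly all basement membranes and share a promoter region on chromosome 8, where their annotated first bases overlap by 85 bp. A single peak covered both starts in each library. It measured 1696, 1986, 1450 and 1409 bp, or 1841 ± 205 bp in controls and 1430 ± 29.0 bp in Snf5 CKO (SD, n = 2 each). Both Snf5 CKO peaks were shorter than both control peaks. Their outer edges on the Col4a1 side differed by at most 69 bp between libraries, while on the Col4a2 side the Snf5 CKO peaks ended 243 to 508 bp before those of the controls. Its fold enrichments were 4.07, 3.90, 4.16 and 4.11. A CCAAT box lies 32 bp before the listed Col4a2 start, inside the peak of all 4 libraries.
Col4a2 (chr8:11312761-11312790, plus strand, CCAAT in capitals): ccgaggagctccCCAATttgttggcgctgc

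Col4a3 and Col4a4 encode chains of the specialised basement membranes of the kidney glomerulus, lung, cochlea and eye. Their annotated starts on chromosome 1 overlap by 114 bp, and again 1 peak spanned both. It measured 885 and 839 bp in the controls and 647 bp in Snf5 CKO 1, and was missing from Snf5 CKO 2. The fold enrichments were 4.13, 4.39 and 3.74. Since the pair shares this peak, its 2 entries among the genes without a peak in Snf5 CKO 2 rest on 1 region.

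Col4a5 and Col4a6, the X-linked pair, differed from the other type IV pairs in their layout. The starts lie 1274 bp apart and no peak joined them. Col4a5 had a start peak of 777, 630, 695 and 637 bp, and the groups overlapped in length. The fold enrichments were 4.97, 4.94, 4.70 and 4.58, with both Snf5 CKO values below both control values. Fold values come from separate lists, and the share of all genes with such an order was not counted. A difference by genotype in the fold at Col4a5 was not tested. The peaks began 1112 to 1125 bp from the Col4a6 end, just outside its window of 1 kb, and the Col4a6 start had no peak in any library. Within their 300-base entries, which run 250 bases before to 50 after the listed start, the Col4a5 promoter held 11 CG dinucleotides and that of Col4a6 held 3.

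**Figure D3:**
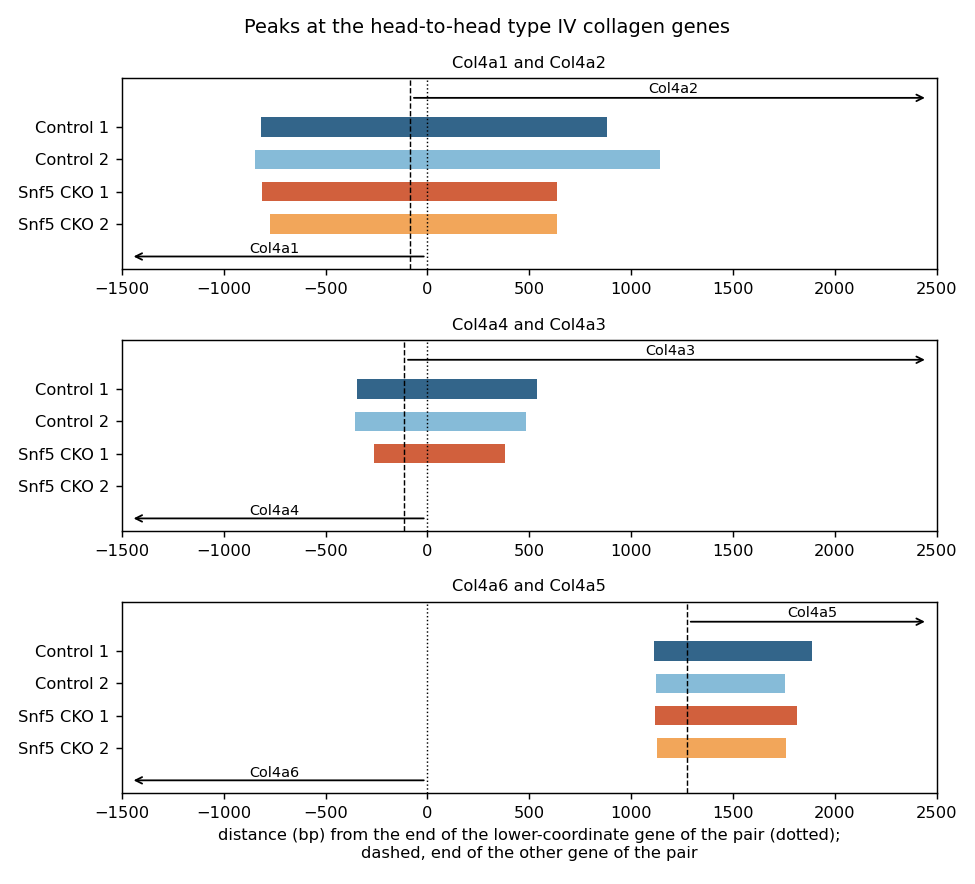
Peaks at the 3 head-to-head pairs of type IV collagen genes, drawn by library (rows) against the distance in bp from the end of the lower-coordinate gene; arrows show the direction of each gene. A peak covers both starts of Col4a1 and Col4a2 in all 4 libraries and of Col4a3 and Col4a4 in 3, while the peaks at Col4a5 begin 1112 to 1125 bp from Col4a6.

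Of the 11 fibrillar genes, 5 were kept (Col1a1, Col1a2, Col5a1, Col11a1 and Col27a1), 1 was lost, 3 were open in some of the libraries and 2 were closed. Col1a2, which encodes a chain of type I collagen, the main collagen of bone and skin, had start peaks of 1102 and 871 bp in the controls. In Snf5 CKO 1 it had a peak of 205 bp over the start and one of 275 bp farther into the gene, and in Snf5 CKO 2 a start peak of 534 bp. The summed lengths gave 986 ± 163 bp in controls and 507 ± 38.2 bp in Snf5 CKO (SD, n = 2 each), and the groups did not overlap. Col1a1, its partner chain, had no peak over the lower-coordinate end in any library. Its peaks began 823 to 971 bp inside the gene and measured 480, 706, 253 and 430 bp, and the groups did not overlap in length.

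Col5a1, a chain of type V collagen that helps to start fibrils, kept peaks of 1296, 1050, 1105 and 1104 bp, with overlapping groups. Col11a1, its relative in cartilage, had 325 and 492 bp in the controls and 698 and 247 bp in Snf5 CKO, also overlapping. Peak length thus did not separate the genotypes at these starts. The fold enrichments did not overlap, lower in Snf5 CKO at Col5a1 (4.27, 4.67, 4.10 and 3.66) and higher at Col11a1 (3.83, 4.84, 4.91 and 5.22). At each gene the nearest control and Snf5 CKO values lay closer together than the 2 controls did. A difference by genotype was not tested, and the share of all genes with separated fold values was not counted. Col27a1 had 632 and 740 bp in the controls and 376 and 207 bp in Snf5 CKO at its lower end. Its listed start lies 1403 bp farther in, where a further region, at 63215146 to 63216262 on chromosome 4, had a peak in all 4 libraries.

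Col2a1, the main fibrillar collagen of cartilage, had a peak over its higher-coordinate end in 3 libraries, with fold enrichments of 2.77, 2.62 and 2.99, and none there in Snf5 CKO 2. Inside the gene, at 97992253 to 97993692 on chromosome 15, a region had a peak in every library, with fold enrichments of 4.70, 4.01, 7.64 and 5.85. Col5a3 had start peaks of 495, 712 and 366 bp in Control 1, Control 2 and Snf5 CKO 1, and none in Snf5 CKO 2. Col5a2 had a peak in Control 2 and Snf5 CKO 1 alone. Col3a1, the type III collagen of stroma and vessels, and Col11a2 had no peak in the gene or within 1 kb of it in any library.

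In all, 14 collagen genes (31.8%) were closed at both ends in all 4 libraries, beside 33.6% of all genes. Of these, 7 had no peak anywhere in the gene either (Col3a1, Col6a1, Col6a3, Col7a1, Col10a1, Col11a2 and Col20a1). Among them are the abundant stromal chains of type III and type VI collagen, the anchoring fibril gene Col7a1 of skin and Col10a1, a gene of hypertrophic cartilage. Of the 6 beaded filament (type VI) genes, 4 were closed at their ends. Among these, Col6a5 has its listed start 1820 bp from the nearest gene end, and Control 1 alone had a peak over it (339 bp). Col6a2 had start peaks of 364, 394 and 200 bp in Control 1, Control 2 and Snf5 CKO 1, and Col6a6 had 1 peak of 327 bp, in Control 1. Closed here means that no peak was listed, and a start open below the detection limit of these libraries would look the same.

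The FACIT class had 9 genes, of which 5 were open in both controls and 1, Col19a1, was kept. It held 2 of the 5 lost genes. In Snf5 CKO 2 the kept call of Col19a1 rests on 8 bp of overlap with the window. The 3 type IX genes, whose chains assemble into 1 molecule on cartilage fibrils, were looked at together after their values had been seen. Counting every peak in or within 1 kb of Col9a1, Col9a2 and Col9a3, there were 5, 8, 0 and 1. These covered 3562, 4681, 0 and 216 bp. The 1 remaining peak lay at Col9a3, which had 876 and 1058 bp in the controls.

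The transmembrane collagens and multiplexins can be cleaved to release soluble fragments. All 5 such genes that were open in both controls were kept (Col13a1, Col23a1, Col25a1, Col15a1 and Col18a1), beside 89.6% of all genes, and the sixth, Col17a1, was closed. By class that was 3 of 3 transmembrane and 2 of 2 multiplexin genes, too few to set apart from the share of all genes. At Col13a1 every library had a peak within 1 kb of the start, but only that of Control 2 covered the listed start. A further peak at the far end was missing from Snf5 CKO 2. Col23a1 had the longest summed peaks of the family, 2594, 2398, 1681 and 1545 bp. These totals include a peak at its far end that lies at the neighbouring gene Phykpl, and that peak also held the highest gene-end fold enrichment of the family, 5.87 in Snf5 CKO 2. At the Col23a1 start itself the peaks measured 1490, 1346, 838 and 824 bp. Col8a2, a short-chain gene, had 769 and 655 bp in the controls and 349 bp in Snf5 CKO 2, and no peak in the other knockout library.

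Peaks at most of the kept collagen genes were shorter in both knockout libraries. Over the 14 genes the median summed length was 1234, 1288, 795 and 520 bp. The same medians over the 12030 kept genes were 1171, 1151, 882 and 826 bp. Both Snf5 CKO lengths lay below both control lengths at 11 of the 14 genes (78.6%), against a background of 77.3%, and above at none, against 1.27%, so the count of separated genes was near that of all genes. On the log2 scale, the mean Snf5 CKO length over the mean control length had a median of −0.74 for the collagens, with a range from −1.89 to 0.21, and −0.41 for all kept genes. With lengths taken over whole merged regions the medians were −0.66 and −0.40, and the same count of 11 genes was shorter in both knockout libraries. Col4a1 and Col4a2 share their peak, so the 14 genes stand for 13 sets of peaks. Depth and background, both unknown, bear on the length of a called peak.

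Col18a1, whose product is cleaved to release endostatin, had the lowest ratio, which rests on the edge of the window. Its start peak measured 1239 and 1341 bp in the controls, or 1290 ± 72.1 bp, and 213 and 484 bp in Snf5 CKO, or 348 ± 192 bp (SD, n = 2 each). Both Snf5 CKO libraries had a further peak deeper in the gene, beyond the window, that falls into the same merged region. Counted over the whole merged region, an alternative chosen after the data had been seen, the lengths were 1239, 1341, 1235 and 953 bp. The log2 ratio of Col18a1 was then −0.24 in place of −1.89, and the lowest of the 14 was −1.23, at Col27a1. The value for Col27a1 also depends on the window, since its peaks lie at the lower end, 1403 bp from the listed start. Within 1 kb of that listed start, peaks covered 1489, 1478, 1171 and 1059 bp. Col25a1 had 1392 and 1506 bp against 684 and 657 bp, and Col15a1 had 1164 and 1234 bp against 892 and 380 bp. At both of these the controls lay above both knockout libraries. Col13a1 had 1229 and 1488 bp against 966 and 208 bp, and Col19a1 had 1284 and 1343 bp against 1127 and 506 bp. At these 2 and at Col15a1 the knockout libraries differed from each other by more than the controls did.

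**Figure D4:**
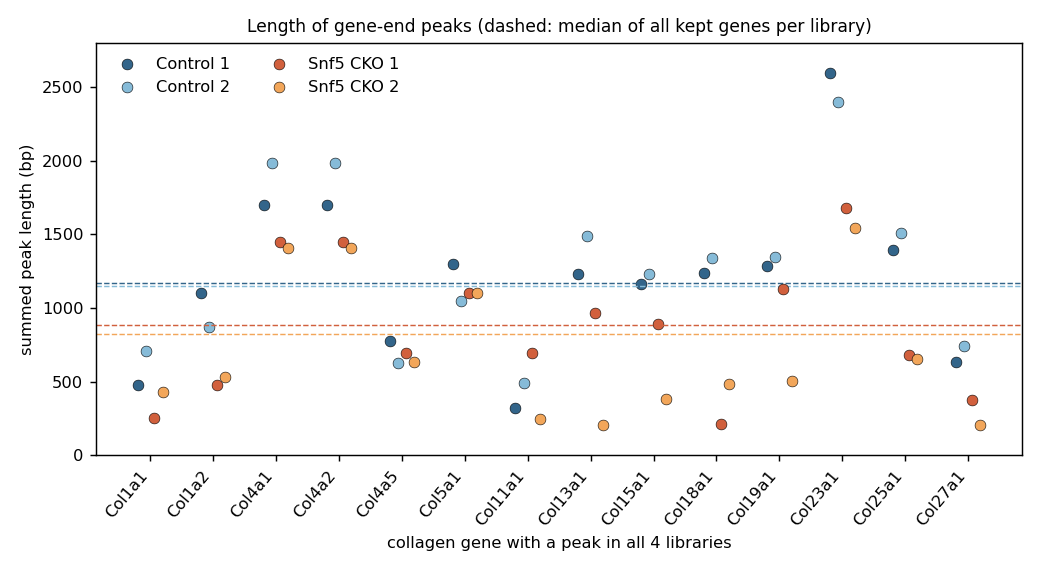
Summed length in bp of the gene-end peaks at the 14 collagen genes with a peak in all 4 libraries; each point is a library and each dashed line the median over all 12030 kept genes in the library of that colour. At 11 genes both Snf5 CKO points lie below both control points, and at Col4a5, Col5a1 and Col11a1 they overlap. For Col18a1, Snf5 CKO peaks of the same merged region that do not touch the window are not counted.

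The side of the start on which bases were lost was compared at the 13 kept collagen genes with a listed start, a comparison chosen after the data had been seen. In the 1 kb after the start the median number of covered bases was 817 and 969 bp in the controls and 524 and 438 bp in Snf5 CKO. In the 1 kb before it the medians were 392, 267, 314 and 224 bp. The medians of the groups were thus apart on the gene's side and overlapped on the upstream side. Col4a1 and Col4a2 share 1 peak, so bases before the start of either gene lie after that of the other and enter both sides. Over the 9718 genes kept at their gene ends that also have a listed start both sides were shorter in Snf5 CKO, with 611 and 596 bp against 426 and 410 bp after the start and 436 and 430 bp against 346 and 312 bp before it.

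Collagen promoters without a peak held few CG dinucleotides. The RefSeq promoter table held 38 entries of 300 bases for 35 of the 44 genes. The median number of CG dinucleotides was 18.0 in the 13 promoters with a peak within 1 kb of the start in all 4 libraries and 3.0 in the 13 with none in any. It was 11 in the 4 lost promoters (from 6 in Col24a1 to 24 in Col16a1) and 13.0 over all 21263 entries of protein-coding genes. The highest counts were 37 and 33 in the overlapping entries of Col4a1 and Col4a2 and 34 in Col5a1, and Col3a1, Col28a1 and the first entry of Col9a1 had 0.

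The GC box GGGCGG was found in 10 of the 13 kept promoters and 4 of the 13 closed ones, beside 46.2% of all entries. Each GC box contains a CG, so this count overlaps with the previous one. CCAAT was found in 7 kept and 4 closed promoters (38.2% of all entries), TATAAA in 1 kept and 4 closed (12.6%) and TGANTCA in 0 kept and 1 closed (6.99%). Of the lost promoters, 3 of 4 held a GC box, 1 held CCAAT and none held either of the other motifs. The printed letters show this for Col9a2 and Col8a1, with several GC boxes near the start, and for Col24a1, with no marked motif. A motif match describes the letters alone.

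**Figure D5:**
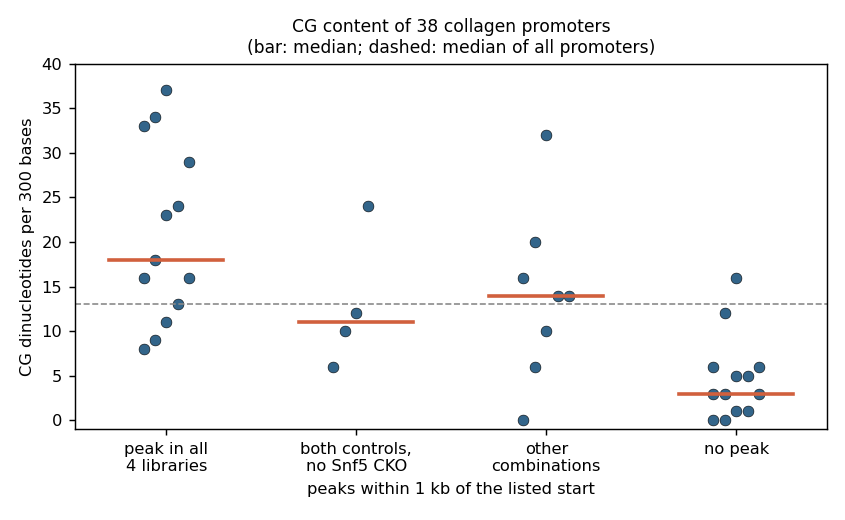
CG dinucleotides per 300-base promoter entry for 38 collagen promoters, split by the libraries with a peak within 1 kb of the listed start; bars give the group medians and the dashed line the median of all promoters, 13.0. Promoters with no peak have a median of 3.0 and those with a peak in all 4 libraries one of 18.0.

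Collagen genes are long, with a median of 114 kb against 17.2 kb for all protein-coding genes, and most of the regions found in them lay away from their ends. Merging overlapping peaks of the 4 libraries gave 130 regions in the 44 genes and 1 kb around them. Of these, 25 (19.2%) were kept, 16 (12.3%) lost and 9 (6.92%) gained, against 38.7%, 8.58% and 3.35% of regions in all genes and 1 kb around. Over all merged regions of the genome the shares were 29.4%, 7.58% and 5.08%. Both backgrounds mix regions at gene ends with others, and no share for gene bodies alone is given. A part of this mix in the differences was not tested. Single libraries alone held 56, namely 27, 7, 22 and 0. Of the 38144 regions in all genes and 1 kb around they held 14352, namely 5643, 2844, 5398 and 467. The number lost was 44 without Control 2, 29 without Snf5 CKO 1 and 25 without Control 1, and the number gained was 31 without Snf5 CKO 2. With the −log10 q limited to 3 or more, 5 regions were gained. No shares over all regions are given beside these counts under alternatives.

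Of the 16 lost regions, 11 lay inside a gene and 5 at a gene end, and all 9 gained regions lay inside a gene. Col26a1 held the most lost regions, 4. The 3 inside the gene spanned 470, 497 and 570 bp, with control fold enrichments from 3.87 to 4.64. Col9a1, Col9a2 and Col19a1 held 2 each. The highest fold enrichment in a lost region was 5.41, in Control 1, in Col9a1 at 24245792 to 24246186 on chromosome 1, where Control 2 had 4.11. By the −log10 q of the weaker control the first was in Col26a1, at 136790656 to 136791152 on chromosome 5, with 5.18, against 4.26 for that of Col9a1.

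Gained regions were found in 9 genes, of which 4 were type IV genes (Col4a1, Col4a2, Col4a4 and Col4a6) and the others Col8a1, Col18a1, Col19a1, Col25a1 and Col26a1. They were short, with a median width of 323 bp and a range of 209 to 879 bp, against 570 bp for the lost regions inside genes. Gained regions hold Snf5 CKO peaks alone and lost regions control peaks alone. Over the whole lists the median peak measured 578 and 560 bp in the controls and 427 and 515 bp in Snf5 CKO. The highest fold enrichments lay in Col18a1 at 77152164 to 77152519 on chromosome 10, with fold enrichments of 5.57 in Snf5 CKO 1 and 4.50 in Snf5 CKO 2. The longest, at 141458350 to 141459228 on X, lay in Col4a6, with 4.85 and 4.02. Col8a1, Col19a1, Col26a1 and Col4a1 held both a lost and a gained region.

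Some kept regions inside collagen genes had far higher fold enrichments than any collagen start. A region of 364 bp in Col23a1, at 51455538 to 51455901 on chromosome 11, had 12.1, 10.1, 8.65 and 9.33. A region of 409 bp in Col6a6, at 105819231 to 105819639 on chromosome 9, had 7.68, 10.4, 11.8 and 10.8. One of 227 bp in Col4a6, at 141276495 to 141276721 on X, had 9.01, 8.46, 8.23 and 8.39. These 3 lay more than 1 kb from the gene ends and had a peak in every library, also in Col4a6, a gene closed at its ends.

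Peaks covered fewer bases of collagen gene bodies in the knockout libraries, as they did over all genes. They covered 27850, 24439, 20637 and 13225 bp of 5.36 Mb. Per kb of gene body that was 5.20, 4.56, 3.85 and 2.47 bp, and for all genes 8.80, 7.56, 6.76 and 4.21 bp. The log2 ratio of the group means, knockout over control, was −0.63 for the collagens and −0.58 for all genes, so the 2 values were close. Without Snf5 CKO 1 the collagen ratio was −0.98 and without Snf5 CKO 2 it was −0.34.

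Genes that make, cross-link, bind and degrade collagen were counted in the same way. Of the 63 genes on 5 lists, 46 were open in both controls, of which 37 (80.4%) were kept and 3 (6.52%) lost, beside 89.6% and 4.84% of all genes open in both controls. Of 19 genes of chain modification and folding, such as the prolyl and lysyl hydroxylases, 17 were open in both controls. Of those, 15 were kept and none was lost. Of 14 genes of propeptide removal and cross-linking 10 were open in both controls, of which 9 were kept. Loxl4, a lysyl oxidase gene with control peaks of 679 and 905 bp, was lost. Of 15 genes for other basement membrane proteins, among them laminins and nidogens, 13 were open in both controls. Of those, 11 were kept and none was lost.

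Of 9 receptor genes 5 were open in both controls, of which 2 were kept, and 4 had no peak (Ddr1, Ddr2, Gp6 and Lair1). Itga11, an integrin subunit gene for collagen binding with control peaks of 340 and 200 bp, was lost. Of 6 degradation genes only Mmp14 was open in both controls, 4 had no peak in any library and none was kept. Mmp14, which encodes a membrane-bound collagenase, had control peaks of 1147 and 947 bp and was lost. Summed gene by gene, collagen gene-end peak lengths were 28293 and 27966 bp in the controls and 15129 and 10322 bp in Snf5 CKO (44 genes). The peak shared by Col4a1 and Col4a2 and that shared by Col4a3 and Col4a4 count once for each gene. The peak at Phykpl is included through Col23a1. For the stroma markers the sums were 2378 and 2819 bp against 1947 and 685 bp, for the endothelium markers 1497 and 1742 bp against 756 and 891 bp, for the ovarian supporting cell markers 7172 and 6054 bp against 4450 and 4438 bp, and for the germ cell markers 6661 and 6644 bp against 5682 and 4199 bp. A part of somatic cells in the collagen peaks was not tested.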

How the data were processed

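The deposited data were 4 lists of broad ATAC-seq peaks, 1 per library. Per the submitters' processing notes the build was mm10 and the tools were MACS2 2.2.7.1, Bowtie2 2.4.2, Picard 2.25.2, SAMtools 1.10 and Trim Galore 0.6.5, with no role, order or threshold given. Reads of 50 bp are given in the labels. In the deposited lists each peak has a score (10 times its −log10 q without decimals), a fold enrichment ratio over local background, and a −log10 p and −log10 q, all from the authors' peak caller. They were used to describe or filter peaks within a list, and fold values of different lists are set side by side only as description. No read counts were used, so depth is unknown.

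Genes were placed from the RefSeq table of GRCm38.p6, the assembly of mm10. That table has no strand; 35 of the 44 collagen genes have one in the promoter table (not listed: Col1a1, Col2a1, Col4a3, Col5a2, Col9a3, Col12a1, Col14a1, Col22a1 and Col26a1). Presence needed 1 bp of overlap with a window of 1 kb on either side of a gene end. Peak length is the sum over peaks touching the windows. Gene bodies exclude the windows. Overlapping peaks were merged into regions. Python 3.11.15 was used, and hits, covered bases, merging and calls were checked on simulated peak lists. No test was run, since 2 libraries against 2 allow a smallest two-sided permutation p of 0.333. The type IV and fibrillar genes, all lost or gained members and regions, and the members with the longest or strongest gene-end peaks were described singly, others in groups. The members and gene lists were chosen with earlier results of these data known. Alternatives were windows of 500 bp and 2 kb, listed starts only, 200 bp covered, whole merged regions, a −log10 q of at least 3, lists of the same length, merging within 200 bp, 10 kb around each gene, and each library left out. Lengths over whole merged regions were added after seeing the data.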

Additional observations from a re-analysis of the deposited data

How the results depend on the processing

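No collagen gene was gained at its ends under the main settings or under any of the 11 alternatives tried for that count. With peaks limited to a −log10 q of 3 or more, 10 collagen genes were lost and 9 kept, and 5 regions were gained. The number of genes kept was 10 with windows of 500 bp and 12 where 200 bp had to be covered. No share over all genes is given beside these counts. Leaving out each library in turn gave 6 to 11 lost genes, 20 to 44 lost regions and 9 to 31 gained regions, without shares over all genes. The log2 ratio of covered bases in gene bodies then ran from −0.98 to −0.34, beside a spread between replicates of 0.33. Of all 62 values under alternatives, 53 stayed within 1.5 times the main count or within the replicate spread and 9 moved beyond it. The 53 include the 11 counts of gained genes, all 0, where the share over all genes closed in both controls was 0.534%. None of the log2 ratios changed sign, and counts cannot do so. A library left out relaxes the rule for lost and gained, so those counts cannot fall when it is. No paired analysis was possible because no result comes from a test and nothing in the labels ties libraries of the same number in both groups to each other. Depth, unknown here, limits every call of a missing peak.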
